A study of Homo sapiens with 6 samples.

Results

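The genes described here encode the proteins of the mitochondrial ribosome. They were taken as every protein-coding gene whose symbol starts with MRPL or MRPS followed by a number, with at least 60 reads summed over the 6 libraries. This gave 78 genes of 29710 in the deposited count table, and all 78 were among the 16515 tested genes. The read minimum removed 0 genes, since the lowest total was 1549 reads (MRPS17) and the highest 44692 (MRPS10). Libraries were made from the triple-negative breast cancer line MDA-MB-231 in 2 groups of 3 biological replicates: cells overexpressing SRPK2-FLAG, a tagged form of a kinase that phosphorylates splicing factors, and cells with an empty vector as negative control. The sources used here do not name the promoter that drives the construct or the way the cells received it.

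The mitochondrial ribosome sits in the mitochondrial matrix and translates the few messages of the mitochondrial genome, all of which encode subunits of the respiratory chain and of ATP synthase. Its RNAs come from the mitochondrial genome, while its proteins are encoded in the nucleus, made in the cytosol and imported. It descends from a bacterial ribosome but has lost RNA and gained proteins with no bacterial counterpart. Symbols do not always follow the structure: MRPS18A and MRPS30 are named for the small subunit but sit in the large one, and MRPS36 is now regarded as a part of the 2-oxoglutarate dehydrogenase complex. Sorted by structure, the 78 genes comprised 51 of the large subunit, 26 of the small subunit and MRPS36. Of the 77 ribosomal members, 46 were classed as having a bacterial homologue and 31 as specific to mitochondria. The second class includes MRPS18A and MRPS18B, which are relatives of a bacterial protein but sit at other places.

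The SRPK2 libraries held 31140537 to 36908878 reads assigned to genes and the vector libraries 33590410 to 36225361. SRPK2 averaged 252 ± 41.0 CPM (read counts scaled for library size and composition) with SRPK2-FLAG and 38.6 ± 2.27 CPM with the empty vector (SD, n = 3 each), and SRPK2 replicate 2, at 248 CPM, lay inside the range of its group. Of the line's markers, here in CPM scaled by library size alone, VIM and CD44 had at least 3360 and 1020 CPM in every library and ESR1 and PGR at most 0.0642 and 0.113 CPM. ERBB2, the other receptor gene that defines triple-negative cells, had 44.7 to 54.1 CPM, and the epithelial genes EPCAM and CDH1 had 13.5 to 15.7 and 2.20 to 2.98 CPM. PTPRC, a leukocyte gene, had at most 0.268 CPM, and the neuronal gene TUBB3 at most 0.566 CPM. Other genes looked up as markers of other cells were detected. The endothelial gene PECAM1 had 2.97 to 4.61 CPM, and the fibroblast genes COL1A1 and LUM had 3.4 to 5.3 and 2.32 to 3.71 CPM. SYP and PAX8, listed for neuronal or embryonic kidney cells, had 2.4 to 3.01 and 14.8 to 18.8 CPM. Between 0.514% and 0.643% of all reads came from the 78 genes. The chi-square per degree of freedom between replicates was 4.78 to 16.7, more than sampling noise gives, so each counted as its own sample. The labels call them biological replicates.

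Every one of the 78 genes was expressed above the median of all tested genes. Level per length was read from the deposited FPKM, which scales fragments by gene length and library size, averaged over 6 libraries. It spanned 46.3-fold, with a median of 22.7 FPKM, quartiles at 13.6 and 43.2, and 2.88 as the median of all tested genes. MRPL14, a protein of the intersubunit face, was the most abundant, at 137.9 FPKM in SRPK2 cells and 158 FPKM in vector cells. MRPL12, which forms the flexible stalk that recruits translation GTPases, had 122 FPKM with SRPK2 and 143 FPKM with the vector. The mitochondria-specific MRPL51 and MRPL41 followed at 108 and 95.0 FPKM over all libraries, then MRPS10, a protein of the small-subunit head, at 92.5 and MRPL24, at the exit of the peptide tunnel, at 76.0.

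At the low end stood MRPS17 and MRPL2, with 3.20 and 3.33 FPKM, and MRPL46 and MRPL42, with 3.98 and 4.29. MRPL2 lines the catalytic centre and MRPL46 belongs to the central protuberance. The lengths behind these values come from the authors' gene models: MRPL42 was treated as 18012 bases long and MRPL46 as 7045, which lowers their FPKM, whereas MRPL41 was treated as 641. The median FPKM was 23.6 over the large-subunit genes and 20.1 over the small-subunit genes. The order of levels was nearly the same in each library, with a Spearman correlation of 0.995 to 0.999 across the 78 genes between a library and the mean of the other 5, a description across genes that share their lengths.

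**Figure D1:**
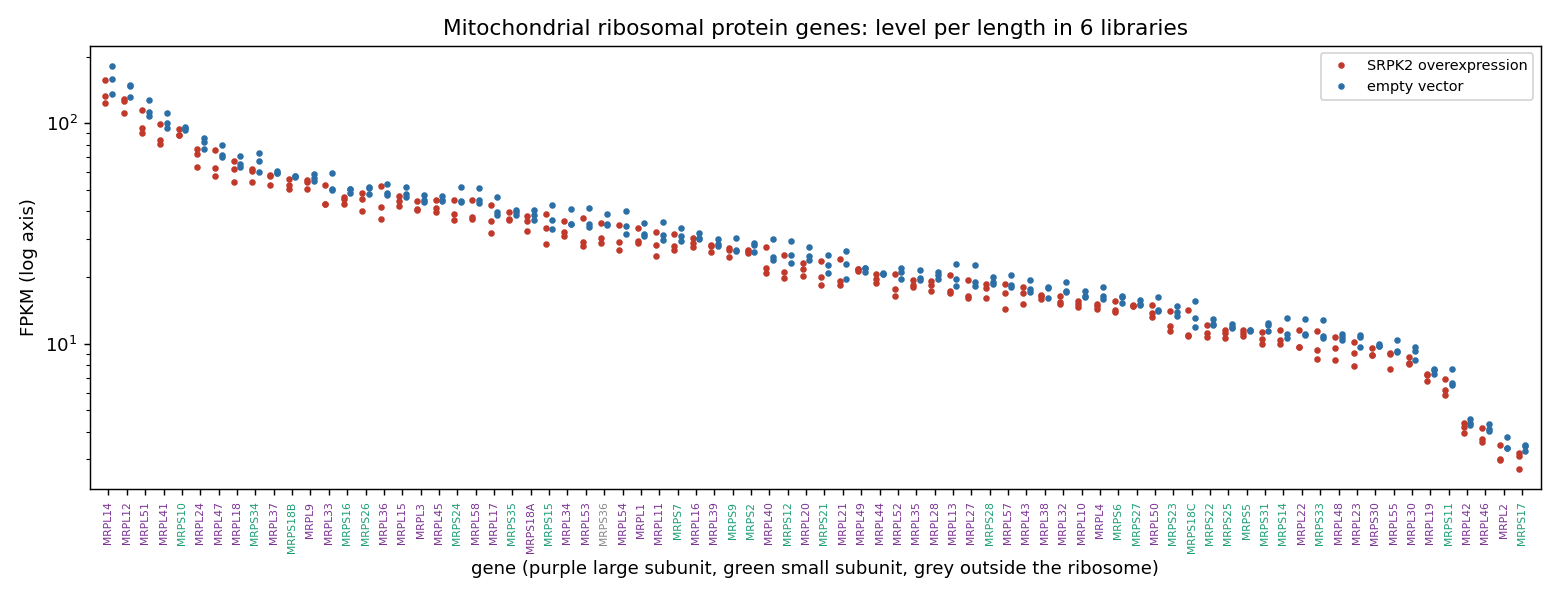
FPKM on a log axis for each of the 78 genes, ordered by mean, with 1 point per library (SRPK2 red, left of each position; empty vector blue, right). Levels run between 3.20 and 148 FPKM, and for most genes the red points lie slightly below the blue ones with overlap.

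With SRPK2 overexpression all 78 genes had lower fitted levels than with the empty vector, by small amounts, and 0 passed the test. The log2 fold changes lay between -0.27 and -0.04, which is 16.8% to 2.79% lower, with a median of -0.19 beside 0.00 over all tested genes. In edgeR's quasi-likelihood test with Benjamini-Hochberg adjustment over all tested genes, 0 of 78 rose and 0 fell. Of all tested genes 0.454% were called in either direction, 0.381% as higher and 0.0727% as lower. The smallest adjusted p among the members was 0.156. DESeq2 and limma-voom also called 0 members, beside 0.303% and 0.0545% of all tested genes called as lower. In edgeR, at an unadjusted p under 0.05, 44 of 78 were lower and 0 higher, beside 8.1% of all tested genes lower and 9.06% higher. In 18 of 78 genes all SRPK2 libraries lay below all vector libraries, beside 8.69% of all tested genes. Values below 0 were found for 78 members and for 48.8% of all tested genes. The members were chosen with the direction of related gene groups in these libraries known, so these shares describe the libraries and are not independent support. In bulk RNA, fewer cells with a transcript and less of it per cell cannot be told apart.

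The count of calls depended on the filter, on a block by replicate number and on SRPK2 replicate 2. Without that library 43 of 78 genes passed the threshold as lower, beside 5.08% of all genes tested then, the smallest adjusted p was 0.0146 and the median was -0.25 (edgeR). Without any other single library 0 members passed, with medians between -0.23 and -0.12. With no filter on low counts 31 of 78 passed as lower, beside 2.04% of all genes. With the replicate number as a block, a pairing that the labels do not state, 72 of 78 passed as lower in edgeR, beside 13% of all tested genes. With block and length correction 67 of 78 did, beside 14.3%. Under each of the 18 alternative settings run, all 78 values stayed below 0.

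**Figure D2:**
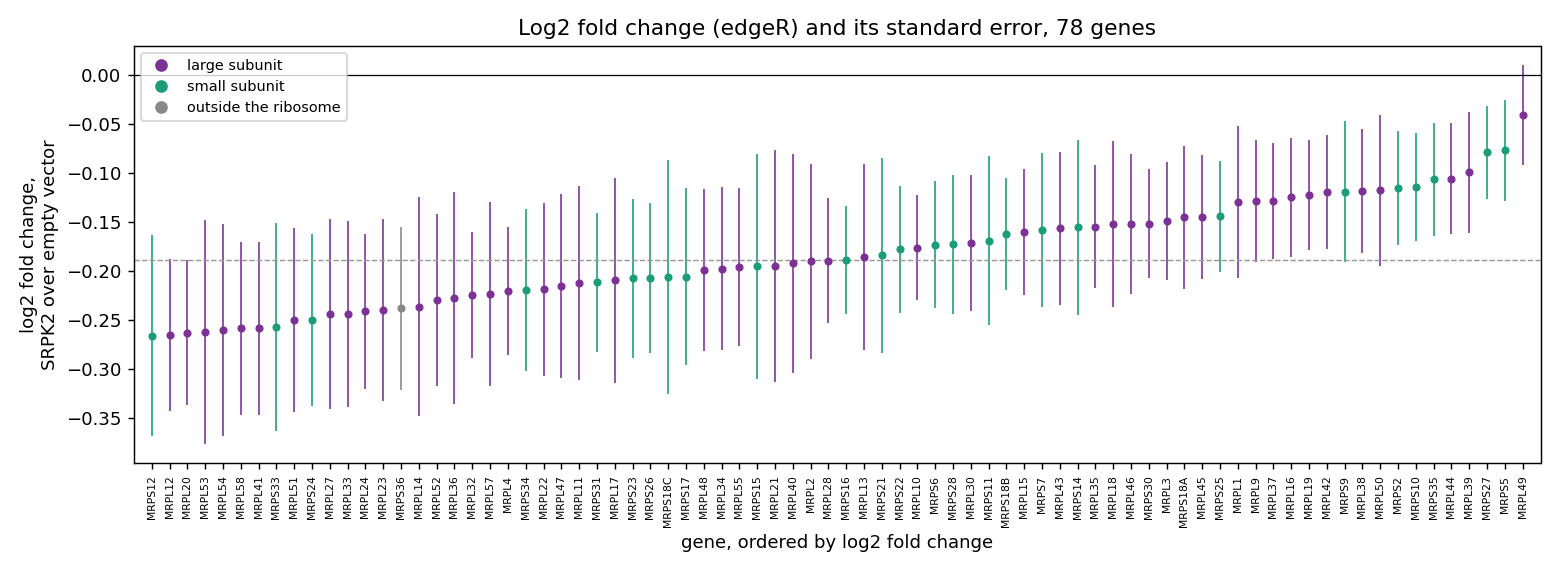
Log2 fold change of SRPK2 over empty vector (points) with its standard error (lines) for the 78 genes in order, coloured by subunit; the dashed line is the median of -0.19. All points lie below 0, between -0.27 for MRPS12 and -0.04 for MRPL49, and both subunits are spread along the range.

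The genes at the low end came from both subunits. MRPS12, a protein of the decoding centre, had 40.6, 48.8 and 37.0 CPM in the SRPK2 libraries and 49.6, 57.8 and 44.7 CPM in the vector libraries. SRPK2 replicate 2 lay above vector replicate 3, so the groups overlapped. The log2 fold change was -0.27 (SE 0.10, edgeR adjusted p = 0.228). MRPL12 had 139.6, 143 and 119 CPM with SRPK2 and 166, 171 and 146 CPM with the vector. Here the groups did not overlap (-0.27, SE 0.08, adjusted p = 0.162 in edgeR). MRPL20, a core protein of the large subunit with a bacterial homologue, had 66.1, 70.9 and 59.9 CPM with SRPK2 and 77.3, 86.4 and 72.6 CPM with the vector, again without overlap (-0.26, SE 0.07, edgeR adjusted p = 0.156).

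MRPL53 and MRPL54, both specific to mitochondria, had log2 fold changes of -0.26 each (SE 0.11 each). MRPL58, a peptidyl-tRNA hydrolase that became part of the ribosome, had -0.26 (SE 0.09), as did MRPL41 (SE 0.09), and MRPS33 had -0.26 (SE 0.11). In these 5 genes SRPK2 replicate 2 lay above the lowest vector library, and their edgeR adjusted p lay between 0.197 and 0.266. All 8 genes of this end passed the threshold without SRPK2 replicate 2 (edgeR adjusted p between 0.0151 and 0.0257), with values between -0.42 and -0.32. So did 43 of 78 members and, as lower, 5.08% of all genes tested then. The 8 were picked by their low values in these same libraries, so their passing is a description and not independent support.

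**Figure D3:**
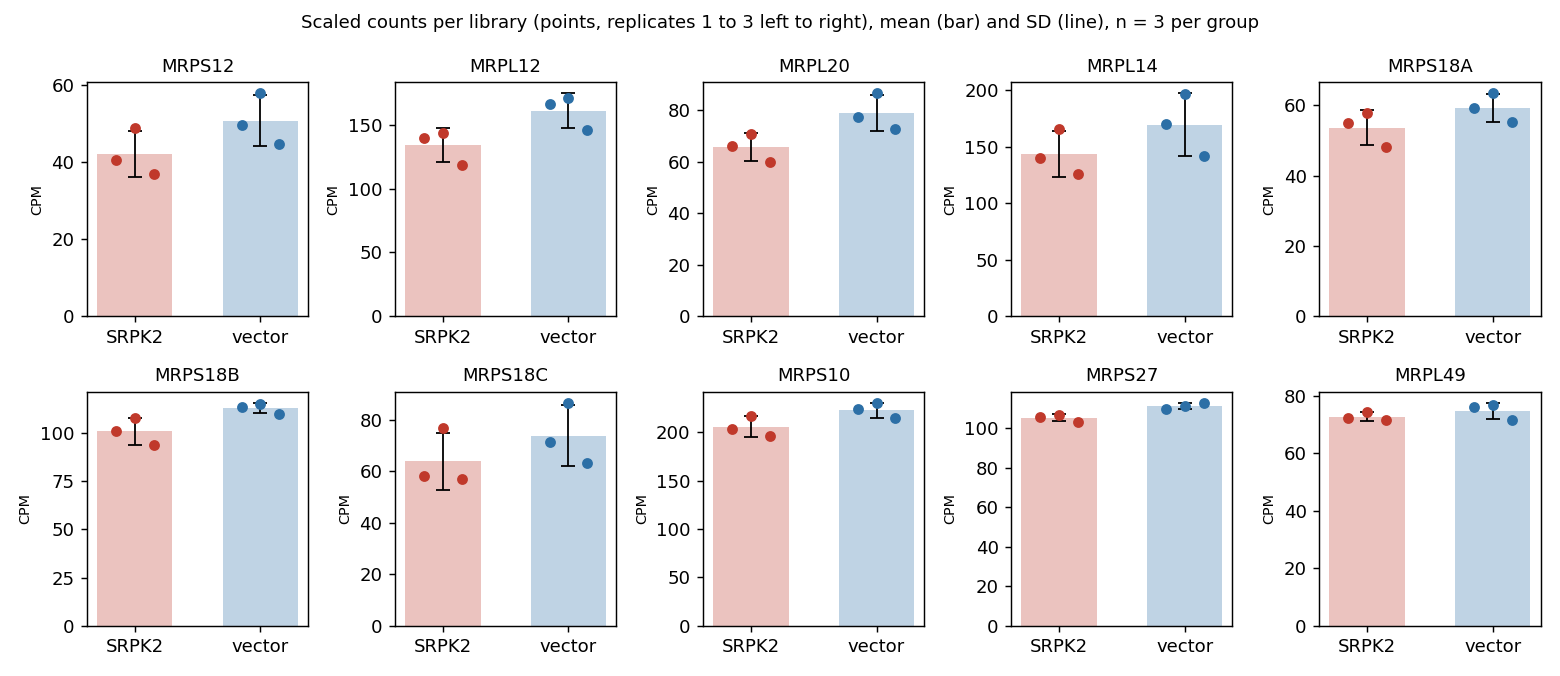
CPM in each library (points), with group mean (bar) and SD (line, n = 3 per group), for 10 of the genes, SRPK2 left and empty vector right in each panel. The SRPK2 mean is below the vector mean in each panel, and the points of the groups are apart in MRPL12, MRPL20, MRPS18B and MRPS27.

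At the other end the differences were close to 0. MRPL49, a mitochondria-specific large-subunit protein, had 72.1, 74.4 and 71.4 CPM in SRPK2 libraries and 76.0, 76.7 and 71.5 CPM in vector libraries. Its libraries were intermixed (log2 fold change -0.04, SE 0.05, edgeR adjusted p = 0.702). MRPS5, near the entry of the messenger RNA, had -0.08 (SE 0.05, adjusted p = 0.446 in edgeR). MRPS27, an RNA-binding pentatricopeptide repeat protein, had 106, 107 and 103 CPM with SRPK2 and 109.6, 111 and 113 CPM with the vector. Its replicates were tight enough that the groups did not overlap, although the log2 fold change was only -0.08 (SE 0.05, edgeR adjusted p = 0.392). MRPL39, MRPL44, MRPS35, MRPS10 and MRPS2 had values between -0.12 and -0.10. MRPS10 had 204, 217 and 196.5 CPM with SRPK2 and 224, 229.8 and 215 CPM with the vector, with overlap (-0.11, SE 0.05, edgeR adjusted p = 0.306).

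Among the most abundant genes MRPL14 had 139.7, 166 and 126 CPM in SRPK2 libraries and 169.8, 197 and 141.5 CPM in vector libraries. Its groups overlapped widely (-0.24, SE 0.11, edgeR adjusted p = 0.299). MRPL51 and MRPL24 had log2 fold changes of -0.25 (SE 0.09) and -0.24 (SE 0.08). Of the least abundant, MRPS17 had 6.26, 7.18 and 7.17 CPM with SRPK2 and 8.14, 8.16 and 7.54 CPM with the vector, without overlap (-0.21, SE 0.09, edgeR adjusted p = 0.272). MRPL2, MRPL46 and MRPL42 had -0.19, -0.15 and -0.12. These 3 genes had overlapping groups. Across the 78 genes the log2 fold change had a Spearman correlation of -0.19 with mean FPKM, given as a description over genes that share the same 6 libraries.

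Human mitochondria carry 3 relatives of the bacterial S18 protein, each at its own place: MRPS18C at the site of the bacterial protein, MRPS18B elsewhere in the small subunit and MRPS18A in the large subunit. MRPS18B was the most abundant of them, at 52.8 FPKM with SRPK2 and 57.6 FPKM with the vector. MRPS18A had 35.5 FPKM with SRPK2 and 38.3 with the vector, and MRPS18C 12.05 with SRPK2 and 13.6 with the vector. In scaled counts MRPS18B had 101, 108 and 93.9 CPM in SRPK2 libraries and 114, 115 and 110.0 CPM in vector libraries, without overlap (log2 fold change -0.16, SE 0.06, edgeR adjusted p = 0.209). MRPS18A had 55.0, 57.8 and 48.0 CPM with SRPK2 and 59.2, 63.4 and 55.2 CPM with the vector, with overlap (-0.15, SE 0.07, edgeR adjusted p = 0.325). MRPS18C varied most, with 58.1, 76.7 and 56.8 CPM with SRPK2 and 71.5, 86.6 and 63.2 CPM with the vector (-0.21, SE 0.12, adjusted p = 0.378 in edgeR). The order of the 3 levels was the same in both groups.

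Structural groups had similar medians. Large-subunit genes had a median log2 fold change of -0.19, with 29 of 51 at an unadjusted p under 0.05 in edgeR, and small-subunit genes one of -0.17, with 14 of 26. Members classed as having a bacterial homologue had a median of -0.19 (46 genes) and those classed as specific to mitochondria one of -0.16 (31 genes). The 3 genes of the stalk and its base (MRPL10, MRPL11 and MRPL12) had a median of -0.21. For 8 genes near the peptide exit and the membrane, among them MRPL45, which anchors the ribosome to the inner membrane, it was -0.21. The central protuberance (6 genes) had -0.17, the decoding region (4 genes) -0.18, and 4 proteins of the small-subunit head -0.14. MRPS36, the gene outside the ribosome, had -0.24 (SE 0.08, edgeR adjusted p = 0.203). In each of these groups 0 genes passed over all tested genes, and the differences between the groups were not tested.

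The 78 genes moved together from library to library. SRPK2 replicate 3 was the lowest of the 6 libraries for 74 genes and SRPK2 replicate 1 for the other 4. Vector replicate 2 was the highest for 71 genes. As deviations from each gene's mean over the libraries, on the log2 CPM scale, the median over the 78 genes was -0.10, 0.05 and -0.22 in SRPK2 replicates 1, 2 and 3, and 0.07, 0.20 and 0.00 in vector replicates 1, 2 and 3. SRPK2 replicate 2 thus lay above vector replicate 3. It was above the lowest vector library in 60 of 78 genes, whereas SRPK2 replicates 1 and 3 were below every vector library in 72 and 78 genes. The medians spanned 0.26 within the SRPK2 group and 0.20 within the vector group, both wider than the difference of -0.18 between the group means. In both groups replicate 2 had the highest median, then replicate 1, then replicate 3, so these spans hold an order by number that the groups share. Within each number the SRPK2 median lay below the vector median. The labels do not state that same-numbered libraries belong together.

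Large-subunit and small-subunit genes showed the same order of libraries. The large-subunit medians were -0.10, 0.06 and -0.23 in SRPK2 replicates 1 to 3 and 0.07, 0.22 and 0.00 in vector replicates 1 to 3. For the small subunit they were -0.09, 0.03 and -0.21 with SRPK2 and 0.07, 0.18 and 0.00 with the vector.

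Gene length, as implied by counts and FPKM, moved with this result. Shorter members tended to have lower values, with a Pearson correlation of 0.36 between log2 fold change and log2 length over the 78 genes, and 0.21 over the 15809 tested genes with a length. The Spearman correlations were closer to each other, at 0.32 and 0.29. The shortest 26 members, up to 1946 bases, had a median log2 fold change of -0.22, the middle 26 one of -0.19 and the longest 26, over 3372 bases, one of -0.16. The slope of log2 level on log2 length over all tested genes was 0.013, -0.008 and 0.047 in SRPK2 replicates 1, 2 and 3 and -0.017, -0.035 and -0.001 in vector replicates 1, 2 and 3. The order of the 6 libraries by this slope was the reverse of their order by the members' median. With each library corrected for length the members' median was -0.17, with 0 of 78 past the threshold (27 genes, 0.171% of those tested, were lower). The Pearson correlation with log2 length over the members was then -0.18. The corrected library medians were -0.09, 0.03 and -0.18 in SRPK2 replicates and 0.07, 0.17 and 0.02 in vector replicates, and still overlapped.

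**Figure D4:**
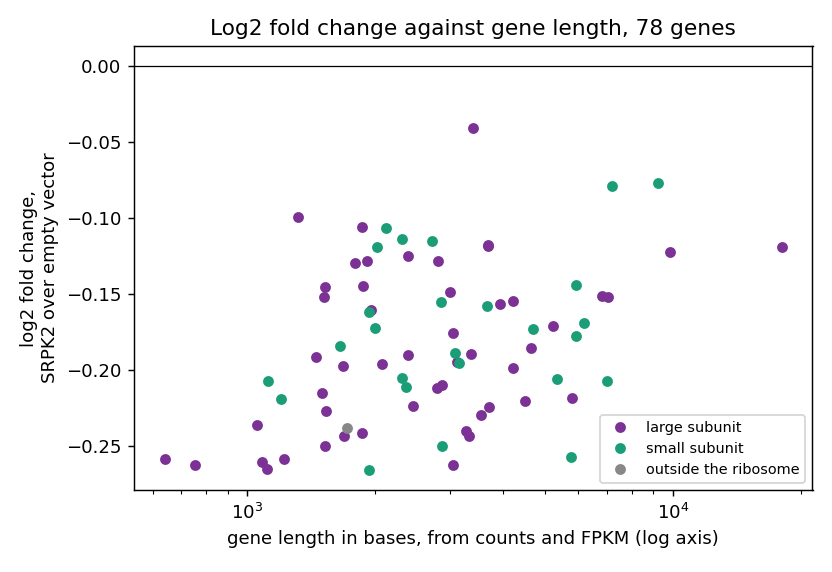
Log2 fold change of SRPK2 over empty vector against gene length implied by counts and FPKM (log axis) for the 78 genes, coloured by subunit. Short genes lie lower, with a Pearson correlation of 0.36, although MRPS33, at 5773 bases, has -0.26 and the longest, MRPL42 at 18012 bases, -0.12.

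Reads of some members may belong to neighbours, and reads in shared exons may have been left uncounted. By GENCODE 29 (GRCh38), exons of 41 of the 78 genes overlap an exon of another gene, on the same strand for 16 and on the opposite strand for 29. The library type is strand-specific, but the sources used here do not state the strand setting of the counting. The levels and fold changes of these genes are therefore uncertain. MRPS12 (chromosome 19, 38930548 to 38933162, plus strand) shares exonic bases with SARS2, MRPL53 with CCDC142, MRPL51 with NCAPD2, MRPS17 with NIPSNAP2, MRPL2 with KLC4, and MRPL49 with FAU and SYVN1. MRPL12 (chromosome 17, 81703357 to 81707526, plus strand) and MRPL20 (chromosome 1, 1401908 to 1407313, minus strand) overlap only genes known by a clone name and, for MRPL20, a small RNA pseudogene. The 21 pseudogenes of members in the table held 1193 reads, 0.0988% of the members' own. MRPS31P5, with 648 reads, had 11.6% of the count of its parent MRPS31, whose value (-0.21, SE 0.07, edgeR adjusted p = 0.196) is therefore uncertain, and MRPL45P2 2.74% of that of MRPL45.

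Some promoters of these genes hold motifs that the choice of members did not use. Windows of 250 bases before to 50 after the transcription start (RefSeq, GRCh38.p14) were found for 69 of the 78 genes; MRPL2, MRPL10, MRPL13, MRPL15, MRPL21, MRPL23, MRPL35, MRPS28 and MRPS36 had none. The core of the site bound by ETS factors such as GABP, a known regulator of nuclear genes for mitochondria, was searched as CCGGAAG on both strands. It was in 30 of 69 members (43.5%) and in 16.5% of the 15843 protein-coding genes with a window. Within the 50 bases before the start it was in 21 of 69 members (30.4%) and in 7.01% of all genes. AAGATGGCG, a form of the YY1 site that holds a start codon, was in 13 of 69 members (18.8%) and in 3.21% of all genes, and in 10 of the 13 it lay after the start. The NRF1 site, searched as GCGCA and GCGC with any base between them, was in 9 of 69 members (13.0%) and 9.67% of all genes. At least 1 of the 3 was in 65.2% of members and 25.9% of all genes. The 15843 genes were not limited to those expressed in these libraries, whereas all 78 members lay above the median level of tested genes. A comparison with other well-expressed genes was not made. The motifs were searched separately and may overlap, and a match is a description of the letters, not of binding.

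The last 150 bases before the start are shown for 6 genes, to set promoters of the genes with low values (MRPS12, MRPL20, MRPS34), of an S18 relative (MRPS18A) and of a gene near 0 (MRPS10) beside MRPL12, in whose stretch none of the 3 motifs was found. MRPS12 has 2 windows. Its stretch precedes a start that lies inside the gene span given above, and the other window is not shown. Capitals mark CCGGAAG or, on the other strand, CTTCCGG. Each is written 5′ to 3′ along its gene.
MRPS12 (chr19:38930804-38930953, plus strand): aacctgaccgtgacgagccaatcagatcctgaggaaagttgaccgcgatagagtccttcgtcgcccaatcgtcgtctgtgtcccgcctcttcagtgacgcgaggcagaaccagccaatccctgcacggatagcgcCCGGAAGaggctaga
MRPL20 (chr1:1407294-1407443, minus strand): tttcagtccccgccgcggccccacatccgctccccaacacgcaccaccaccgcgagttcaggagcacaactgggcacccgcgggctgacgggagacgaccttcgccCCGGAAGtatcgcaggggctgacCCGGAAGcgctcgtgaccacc
MRPS34 (chr16:1773135-1773284, minus strand): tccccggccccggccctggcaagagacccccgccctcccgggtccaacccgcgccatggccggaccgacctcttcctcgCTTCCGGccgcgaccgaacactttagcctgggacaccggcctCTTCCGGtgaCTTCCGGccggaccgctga
MRPS18A (chr6:43687792-43687941, minus strand): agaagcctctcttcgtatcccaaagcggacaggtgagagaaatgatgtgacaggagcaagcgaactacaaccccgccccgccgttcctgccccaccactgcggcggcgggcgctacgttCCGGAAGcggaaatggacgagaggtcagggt
MRPS10 (chr6:42217862-42218011, minus strand): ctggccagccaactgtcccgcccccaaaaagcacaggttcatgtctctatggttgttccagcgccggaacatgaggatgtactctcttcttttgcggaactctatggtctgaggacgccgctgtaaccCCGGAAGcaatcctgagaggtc
MRPL12 (chr17:81703217-81703366, plus strand): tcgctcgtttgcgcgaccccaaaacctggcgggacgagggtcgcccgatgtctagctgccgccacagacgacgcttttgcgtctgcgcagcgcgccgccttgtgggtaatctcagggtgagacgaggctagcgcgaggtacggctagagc
MRPL20 holds 2 copies on the same strand and MRPS34 has 3 on the opposite strand, while MRPS12, MRPS18A and MRPS10 hold 1 each close to the start. Over the whole windows the motif was in 6 of the 8 members with the lowest log2 fold changes (all but MRPL12 and MRPL41) and in 1 of the 8 nearest 0, which is MRPS10. The ends were picked by their values in these same libraries, so this is a description and not independent support. Gene length, which moved with these values, was not set beside the motif. The median log2 fold change was -0.21 over the 30 members with CCGGAAG and -0.16 over the 39 without it, -0.15 over the 13 with AAGATGGCG and -0.19 over the 56 without it, and these differences were not tested.

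Several members start back to back with another gene. In 16 of 69 members (23.2%) a protein-coding gene on the other strand started within 500 bases, pointing away, beside 11.1% of all genes with a window. Those genes too were not limited to expressed ones. One such pair joins both subunits: MRPL46 and MRPS11 start 320 bases apart on chromosome 15, and had log2 fold changes of -0.15 (SE 0.07) and -0.17 (SE 0.09). MRPS12 starts 181 bases from SARS2, the mitochondrial seryl-tRNA synthetase gene, which had -0.07 (SE 0.07). MRPL49 starts 49 bases from FAU, which encodes a cytosolic ribosomal protein fused to a ubiquitin-like one. FAU stood at -0.30 (SE 0.11, edgeR adjusted p = 0.222), further from 0 than MRPL49 at -0.04. MRPL14 starts 240 bases from TMEM63B, which had 0.14 (SE 0.06, edgeR adjusted p = 0.251). Over the 13 tested partners that are not members themselves, 7 values were below 0, the median was -0.06 and the range -0.30 to 0.28, and 6 values were above 0.

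Other symbols name 5 more tested mitochondrial ribosomal proteins, and 0 of 5 passed. Without SRPK2 replicate 2, AURKAIP1, GADD45GIP1 and CHCHD1 passed as lower (3 of 5, edgeR adjusted p between 0.018 and 0.0321), as they did with no filter on low counts. Without any other single library 0 of 5 passed. AURKAIP1, a small-subunit protein, had 96.6, 103 and 82.3 CPM in SRPK2 libraries and 113, 114 and 107 CPM in vector libraries, without overlap (log2 fold change -0.24, SE 0.07, edgeR adjusted p = 0.17). GADD45GIP1 and CHCHD1 had -0.23 (SE 0.11 and 0.10). DAP3, a GTP-binding protein of the small subunit, had -0.07 (SE 0.06). PTCD3, an RNA-binding small-subunit protein, had 101, 98.02 and 106 CPM with SRPK2 and 96.3, 97.98 and 97.4 CPM with the vector. Its SRPK2 libraries all lay above the vector ones (0.07, SE 0.05, edgeR adjusted p = 0.506).

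Factors that build the mitochondrial ribosome or work with it had values nearer to 0, and 0 of 28 tested assembly factors passed (median log2 fold change -0.11, 26 below 0). MALSU1, which docks on MRPL14 during assembly, had -0.24 (SE 0.10, edgeR adjusted p = 0.241), and NDUFAB1, an acyl carrier protein that sits on the same assembly module, had -0.25 (SE 0.09, edgeR adjusted p = 0.22). Of 16 translation factors 0 passed (median -0.07). SLIRP, an RNA-binding protein that stabilises mitochondrial messages, had -0.27 (SE 0.11, edgeR adjusted p = 0.243), and PDF, the peptide deformylase, 0.33 (SE 0.28), with 0.479, 0.601 and 0.652 CPM with SRPK2 and 0.512, 0.524 and 0.355 CPM with the vector. TUFM, the elongation factor that brings tRNAs, had 213, 210.5 and 188.5 CPM with SRPK2 and 229, 224 and 215 CPM with the vector (-0.13, SE 0.06, edgeR adjusted p = 0.285). Mitochondrial aminoacyl-tRNA synthetases, which charge the tRNAs, stood at a median of -0.02, and 0 of 19 passed. MARS2 and FARS2 were furthest from 0, both at -0.15. Transcription and RNA processing factors had a median of -0.07, with 0 of 25, and PUS1, a pseudouridine synthase, had -0.22 (SE 0.06, edgeR adjusted p = 0.164), and TFB2M, a mitochondrial transcription factor, -0.17 (SE 0.08).

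Other large groups of nuclear-encoded genes had medians near that of the 78. Import translocases had -0.17 (0 of 24), with TIMM10, an intermembrane-space chaperone, at -0.38 (SE 0.11, edgeR adjusted p = 0.17) and TOMM5, of the outer membrane, at -0.30 (SE 0.11). Respiratory chain subunits had -0.21 (0 of 77) and cytosolic ribosomal proteins -0.26 (0 of 83). The values furthest from 0 were those of the ATP synthase genes ATP5MJ (-0.32, SE 0.12) and ATP5PO (-0.29, SE 0.11) in the first group and of RPS12 (-0.34, SE 0.12) and RPL23 (-0.34, SE 0.13) in the other. The library medians of cytosolic ribosomal proteins were -0.14, 0.09 and -0.35 in SRPK2 replicates and 0.11, 0.32 and -0.03 in vector replicates. The order of the libraries matched that of the mitochondrial ribosomal proteins. Without SRPK2 replicate 2, 75 of 83 cytosolic ribosomal, 56 of 77 respiratory chain and 11 of 24 translocase genes passed as lower, beside 5.08% of all genes tested then (edgeR). So did 4 of 28 assembly factors (NDUFAB1, MALSU1, MRM3 and MTERF3), 1 of 16 translation factors (SLIRP), 1 of 25 RNA processing factors (HSD17B10), 1 of 9 regulators (ESRRA) and 0 of 20 synthetases. Without any other single library 0 genes passed in each of these lists. For cytosolic ribosomal proteins replicate 2 had the highest median in both groups, and vector replicate 2 stayed in when SRPK2 replicate 2 was left out. Differences between these groups and the 78 genes were not tested.

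**Figure D5:**
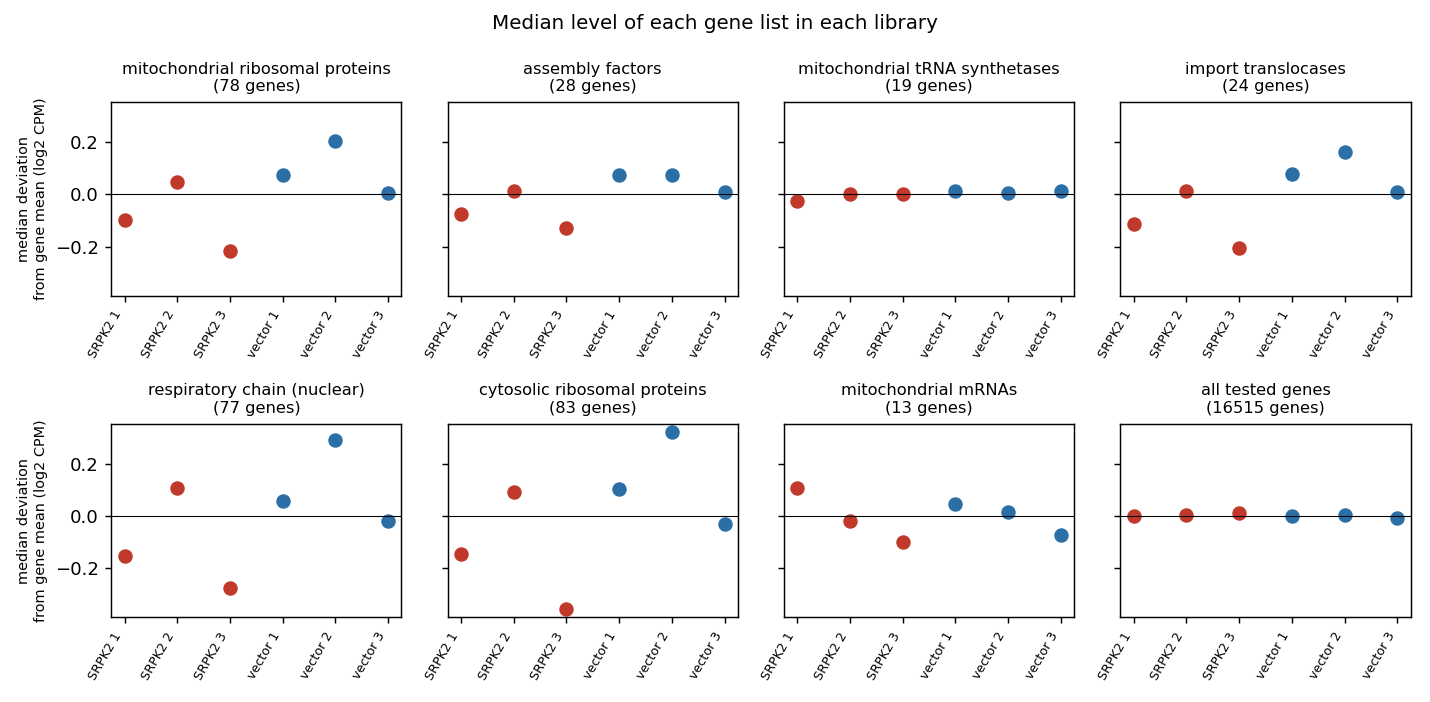
Median deviation from each gene's mean (log2 CPM) in each library for 8 gene groups, SRPK2 libraries red and left, empty-vector libraries blue and right. For mitochondrial ribosomal proteins the points run between -0.22 (SRPK2 replicate 3) and 0.20 (vector replicate 2); the tRNA synthetases and all tested genes stay within 0.03 of 0.

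The messages of the mitochondrial genome lay on both sides of 0. Of 13 messages 0 passed, 6 were below 0, and the median log2 fold change was 0.01. MT-ND4L, which encodes a complex I subunit, had 848, 795.5 and 1001 CPM in SRPK2 libraries and 692, 703 and 669 CPM in vector libraries, without overlap (0.36, SE 0.08, edgeR adjusted p = 0.0717). MT-ATP8, an ATP synthase subunit gene, had 0.23 (SE 0.06, edgeR adjusted p = 0.155). Without SRPK2 replicate 2 both passed as higher (2 of 13), MT-ND4L with an edgeR adjusted p of 0.00717 and MT-ATP8 with one of 0.0255, and both passed with no filter on low counts. Leaving out any other single library gave 0 of 13. MT-ND4L also passed when libraries were scaled by size alone (edgeR adjusted p = 0.0267), in DESeq2 (adjusted p = 0.00162) and with libraries corrected for length (edgeR adjusted p = 0.0344), when MT-ATP8 passed too (edgeR adjusted p = 0.0438). Both overlap a neighbour in the mitochondrial genome. The ribosomal RNAs MT-RNR1 and MT-RNR2, the partners of the proteins described here, had -0.21 (SE 0.09, edgeR adjusted p = 0.247) and -0.09 (SE 0.06, edgeR adjusted p = 0.491). MT-RNR1 passed as lower with no filter on low counts (edgeR adjusted p = 0.00957).

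Of 9 regulators of nuclear genes for mitochondria 0 passed. ESRRA, an orphan nuclear receptor that drives such genes, came nearest, with 43.55, 41.8 and 39.9 CPM in SRPK2 libraries and 51.8, 52.2 and 48.4 CPM in vector libraries. The groups did not overlap (log2 fold change -0.28, SE 0.06, edgeR adjusted p = 0.0528). ESRRA passed without SRPK2 replicate 2 (edgeR adjusted p = 0.0206), with no filter on low counts (edgeR adjusted p = 0.00161), with RLE size factors (edgeR adjusted p = 0.0496), in DESeq2 (adjusted p = 0.00987) and with libraries corrected for length (edgeR adjusted p = 0.0301). Leaving out any other single library gave 0 of 9. MYC had 143, 138 and 138 CPM with SRPK2 and 159, 149.8 and 154 CPM with the vector (-0.14, SE 0.05, adjusted p = 0.203 in edgeR). The factors whose motifs were searched had smaller values, with GABPA at 0.09 (SE 0.06), YY1 at -0.05 (SE 0.05) and NRF1 at -0.02 (SE 0.06).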

How the data were processed

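Counts and FPKM values of 6 RNA sequencing libraries were used, grouped by their titles. Total RNA was extracted with TRIZOL and sequenced in paired-end mode, per the labels' protocols. The submitters' processing notes name bcl2fastq, FastQC, HISAT2 and GRCh38. The sources used here do not name the counting program, its strand mode or the gene annotation. The authors deposited whole-number read counts per gene, not normalized, and a table of FPKM. The members and lists were chosen with earlier results of these data known.

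The test was edgeR's (version 4.0.16, under R 4.3.3; TMM, filterByExpr, quasi-likelihood, two-sided), with group as the sole term and Benjamini-Hochberg adjustment over all tested genes at 0.05. The SE was derived from the fold change and the F statistic. Gene lengths came from counts and FPKM. Their median ratio to GENCODE 29 exon lengths was 1.10 for members (0.508 to 2.14). CPM are TMM scaled, and deviations used a prior count of 2. Alternatives used DESeq2 1.42.0 and limma 3.58.1, loess length correction had a span of 0.3, and scripts were tested on simulated data. Figures used matplotlib 3.10.9 in Python 3.11.15.

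Named genes were the 8 lowest and 8 highest by log2 fold change, the 6 highest and 4 lowest by FPKM and the S18 relatives, with called genes or the 2 largest changes per list. MRPS34, MRPS31, MRPL45, MRPS36, CHCHD1, MRM3, MTERF3, HSD17B10, DAP3, PTCD3, TUFM, GABPA, YY1, NRF1 and the partner genes were added after values were seen. Of the lists, TSFM, MRM2, VARS2 and 7 further genes had too few reads to be tested.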

Additional observations from a re-analysis of the deposited data

How the results depend on the processing

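The median of the 78 genes lay between -0.25 and -0.12 in all settings, and all 78 values stayed below 0. Over all genes 75 were called, 997 with no filter on low counts, 153 by DESeq2, 50 and 18 by limma on log2(FPKM + 1) with and without a filter on mean FPKM of at least 0.5, and 27 to 1403 when 1 library was left out. Members called were 0, but 31 with no filter and 0 to 43 when 1 library was left out. Genes called in the pathway lists were 0, but 1 with RLE factors, 1 with library size alone, 142 with no filter, 2 by DESeq2, 3 after the length correction and 0 to 154 when 1 library was left out. The cause of these shifts was not tested. For single named members, 405 of 468 recomputed values kept their side of the threshold and 63 passed it, and 0 changed direction.

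With the replicate number as a block 3899 genes, 72 members and 209 list genes were called. As lower, these were 92.3% of members beside 13% of all tested genes. With block and length correction the counts were 3366, 67 and 210, with 85.9% of members lower beside 14.3% of all tested genes. Same-numbered libraries correlated at 0.08, 0.23 and 0.17 in their deviations from the group means. The labels state no pairing and the first value was under 0.1, so the samples were treated as sharing only a number. Each library did correlate best with its own number, a hint from the data and not from the design. Different-numbered libraries had -0.165 to 0. The member calls turned on this choice, with 72 called with the block and 0 without it. Groups of 3 libraries limit the precision, and members share libraries and are not replicates.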
